A study of Sorghum bicolor with 24 samples.

Results

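The comparison described here is that of roots of sorghum seedlings treated with the hormone abscisic acid (ABA) with roots treated with its NaOH control. It rests on 6 RNA-Seq libraries of the 24 in the series, chosen by their treatment and tissue labels: 3 of ABA roots and 3 of NaOH roots. The seedlings were of the inbred line BTx623, the line of the reference genome, grown in hydroponic culture in diluted Hoagland's solution. ABA roots came from plants that received 20 μM ABA for 27 h from day 8. NaOH roots came from plants that received only NaOH, in which the ABA had been dissolved, for the same time, and the plants were 9 days old at harvest. The labels give the NaOH as 0.2 M and the methods of the study give another, far lower concentration, and the value enters no test. Roots treated with polyethylene glycol (PEG), which lowers the water potential of the solution, their H2O control, and the shoots of all 4 treatments form the other groups. Each replicate number was a separate hydroponic experiment, and a library held RNA pooled from 3 buckets of 10 plants, so that roots of many plants and of all root zones were mixed. In such bulk samples fewer cells of a type and less RNA per cell cannot be told apart.

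ABA is made by plants when water is short and in ripening seeds. It binds soluble receptors that then block protein phosphatases of type 2C (PP2C), which releases SnRK2 protein kinases, and these activate bZIP transcription factors that bind ABA-responsive elements (ABRE) in promoters. The best known targets are late embryogenesis abundant (LEA) proteins and dehydrins, which protect membranes and proteins in drying tissue. In roots, added ABA at high levels is known to slow growth, and cells that expand need new cell wall enzymes.

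The ABA root libraries held 14241734, 14755317 and 21316385 uniquely aligned reads for replicate numbers 1, 2 and 3, and the NaOH root libraries 14666312, 14340105 and 22768544. Of 34145 gene models, 22667 had enough reads to be tested. Values are given as scaled reads, which are reads per gene model scaled to the mean library, and levels of different genes are compared only in the deposited RPKM (reads per kilobase of exon, scaled to sequencing depth). A gene is called here where edgeR's quasi-likelihood test gave an adjusted p under 0.05, the log2 fold change was 1 or more in size, and the median depth reached 2X in ABA or NaOH roots. As a check of the tissue, 20 genes of photosynthesis, which mark shoots, summed to 195 to 953 scaled reads in ABA roots and 240 to 708 in NaOH roots, against 600730 or more in any shoot library, and 0 of the 20 were called. In roots, replicate number 3 differed from the others in its later base calling software (version 1.6 against 1.5) and its greater depth, and these cannot be told apart from the experiment. In shoots NaOH replicate 2 also carried the later version, while ABA replicate 2 did not.

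ABA changed 3094 genes in roots, 13.6% of those tested. Transcripts of 1232 genes rose (5.44%) and those of 1862 fell (8.21%). Over the 3 replicate numbers together the rises were the larger. The median called log2 fold change was 1.80 among rising genes, a 3.48-fold change, and −1.65 among falling genes, a 3.15-fold change. In replicate number 3 the order was the reverse, with median log2 ratios of 1.6 among rising and −1.9 among falling genes. A size of 3 or more on the log2 scale was reached by 308 rising and 294 falling genes, and a size of 5 or more by 171 rising and 51 falling genes. Over all tested genes the median log2 fold change was −0.02.

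The rising genes came to hold a large share of the root transcripts. They took 11.9%, 11.4% and 10.7% of the reads in ABA roots and 2.26%, 2.14% and 2.27% in NaOH roots. The falling genes took 3.75%, 3.54% and 3.53% of the reads in ABA roots and 12.1%, 10.6% and 13.5% in NaOH roots. The groups do not overlap in either share, which the choice of the genes by their calls in these 6 libraries fixes, so that the shares describe only how much RNA these genes held. Among the 20 genes with the highest RPKM in ABA roots, 8 were called higher and 0 lower, and among the 20 with the highest RPKM in NaOH roots, 0 were called higher and 9 lower. In the lowest range of expression, a mean RPKM under 1, 0 of 3052 tested genes were called, since few reach a depth of 2X there. In the range of 1 to 10 RPKM 6.9% rose and 11.6% fell, and from 100 RPKM 8.15% rose and 7.59% fell.

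**Figure D1:**
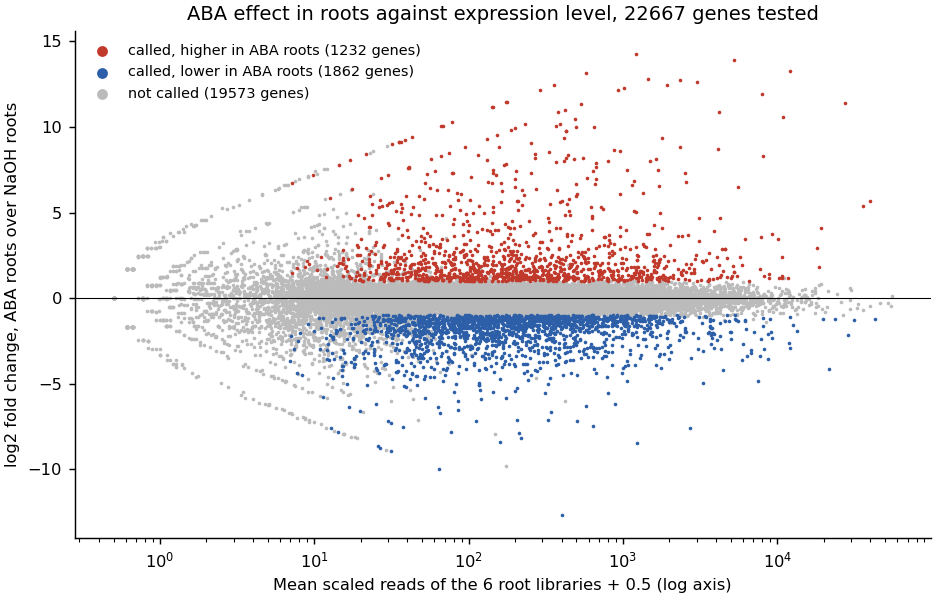
Log2 fold change of ABA roots over NaOH roots (vertical axis) against the mean scaled reads of the 6 libraries (horizontal log axis) for the 22667 tested genes. Red points are the 1232 genes called higher, blue points the 1862 genes called lower and grey points all others, and the rising genes reach farther from 0 than the falling ones.

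LEA and dehydrin genes, known from drying seeds, were among the genes that rose. The LEA group 3 gene Sb09g027110 (chromosome 9, 56214055 to 56215358 on genome sbi1) had the largest rise among genes with a named function, more than 3 reads in each NaOH library and the same direction in all 3 replicate numbers. It had 57428, 54855 and 51646 scaled reads in ABA roots, against 25.1, 16.6 and 17.8 in NaOH roots. The log2 fold change came to 11.43, with an SE of 1.31 and an adjusted p of 1.10e-06, and at 3150 RPKM it was the fourth most abundant transcript of ABA roots. The dehydrin gene Sb09g018420 (DHN1, chromosome 9, 46038022 to 46039089) had 88056, 78999 and 67770 scaled reads in ABA roots and 1657, 1530 and 1454 in NaOH roots. It was well expressed without ABA, at 100.7 RPKM, and reached 5300 RPKM with it (log2 fold change 5.66, SE 0.55, adjusted p = 1.22e-07). In both genes every ABA library lay far above every NaOH library.

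All 10 tested LEA and dehydrin genes rose, and the 7 of them with more than 3 reads in NaOH roots had log2 fold changes of 1.16 to 11.43. Their names come from supplementary tables of the study that list genes changed in some of its comparisons, so that such counts are no independent sample: of the 1812 tested genes with a named function, 57.5% were called, 29.7% higher and 27.8% lower. The hydrophobic LEA-like gene Sb02g010080 had 1359, 1339 and 776.8 scaled reads in ABA roots and 0 reads in all 3 NaOH libraries. With 3 reads taken as the limit that a count of 0 allows in a library, it was at least 438.5-fold higher with ABA. The Rab28 gene Sb01g046490, another LEA gene, likewise had no read in NaOH roots and 92.9, 83.7 and 37.8 scaled reads in ABA roots. A second dehydrin-like gene, Sb10g003700, had 2814, 2668 and 1367 scaled reads in ABA roots and 31.1, 20.5 and 17.8 in NaOH roots.

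Some genes of oil bodies and of protection against oxidation also rose. Oleosins coat the oil bodies of seeds, and Sb01g050670, an oleosin gene, had 237.8, 214.1 and 168.3 scaled reads in ABA roots and 6.02, 10.8 and 3.30 in NaOH roots. A second oleosin gene, Sb06g024350, rose by 2.01 on the log2 scale, while the steroleosin gene Sb01g015790 fell by 3.49. The 1-Cys peroxiredoxin gene Sb02g040650, known from dormant cereal seeds, rose as well: it had 1 read in the 3 NaOH libraries together, a ratio of 645.7 with a 95% counting interval from 115.5 to 25541. The aquaporin gene Sb01g018430 (TIP3-1), whose group resides in the membranes of seed storage vacuoles, had 95.9, 89.5 and 70.4 scaled reads in ABA roots and 0 reads in NaOH roots.

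Outside the lists, the rule for large changes led to genes of sugar and organic acid metabolism. Aldose reductase, which reduces sugars to sugar alcohols, was encoded by Sb09g023250 (chromosome 9, 52875331 to 52878400), with 20230, 24050 and 20890 scaled reads in ABA roots and 12.1, 13.7 and 15.9 in NaOH roots (log2 fold change 10.58, SE 0.96, adjusted p = 5.21e-08). The aconitate hydratase gene Sb02g034590, an enzyme of the citrate and glyoxylate cycles, had 7073, 7929 and 9686 scaled reads in ABA roots and 24.1, 17.6 and 17.8 in NaOH roots. A glucose and ribitol dehydrogenase homolog, Sb09g003150, had 1695, 1502 and 798.9 scaled reads in ABA roots and 5.02, 8.79 and 5.94 in NaOH roots. The 3 genes had non-overlapping groups, as had the other genes that the rule named for their rise.

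The actin-depolymerizing factor 3 gene Sb01g003260, which severs actin filaments, had 5490, 4746 and 3831 scaled reads in ABA roots and 8.03, 9.77 and 11.9 in NaOH roots. Sb01g037560 is named as a putative protein of the family of Tim translocase subunits, which import proteins into mitochondria. It had 3754, 3511 and 2817 scaled reads in ABA roots and 24.1, 16.6 and 16.5 in NaOH roots. Sb01g004490, a 39 kDa protein with calcium-binding EF hands, had 2043, 2616 and 2307 scaled reads in ABA roots and 23.1, 33.2 and 7.92 in NaOH roots. Their log2 fold changes were 8.84 (SE 0.95), 7.47 (SE 0.51) and 6.82 (SE 0.61).

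In NaOH roots 22 of the rising genes had no read in any library. The one with the most reads in ABA roots, Sb09g003960, has no named function and had 2757, 2453 and 2082 scaled reads, at least 920-fold more than the limit in NaOH roots. Sb03g011090 was at least 269-fold and Sb02g013190 at least 219-fold higher, and both lack a named function. The sugar carrier gene Sb01g035490 of the MtN3/saliva family had 1088, 877.4 and 570.0 scaled reads in ABA roots and 1 read in the 3 NaOH libraries together. That is a ratio of 2844 with a 95% counting interval from 510 to 112367. Among the falling genes, 7 had no read in any ABA root library. The one with the most reads in NaOH roots, Sb07g005100, had 1123, 889 and 412 scaled reads there, at least 310.5-fold more than the limit in ABA roots. Sb01g042900 was at least 23.6-fold and the weakly lipase-like gene Sb02g035110 at least 20.2-fold lower with ABA.

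**Figure D2:**
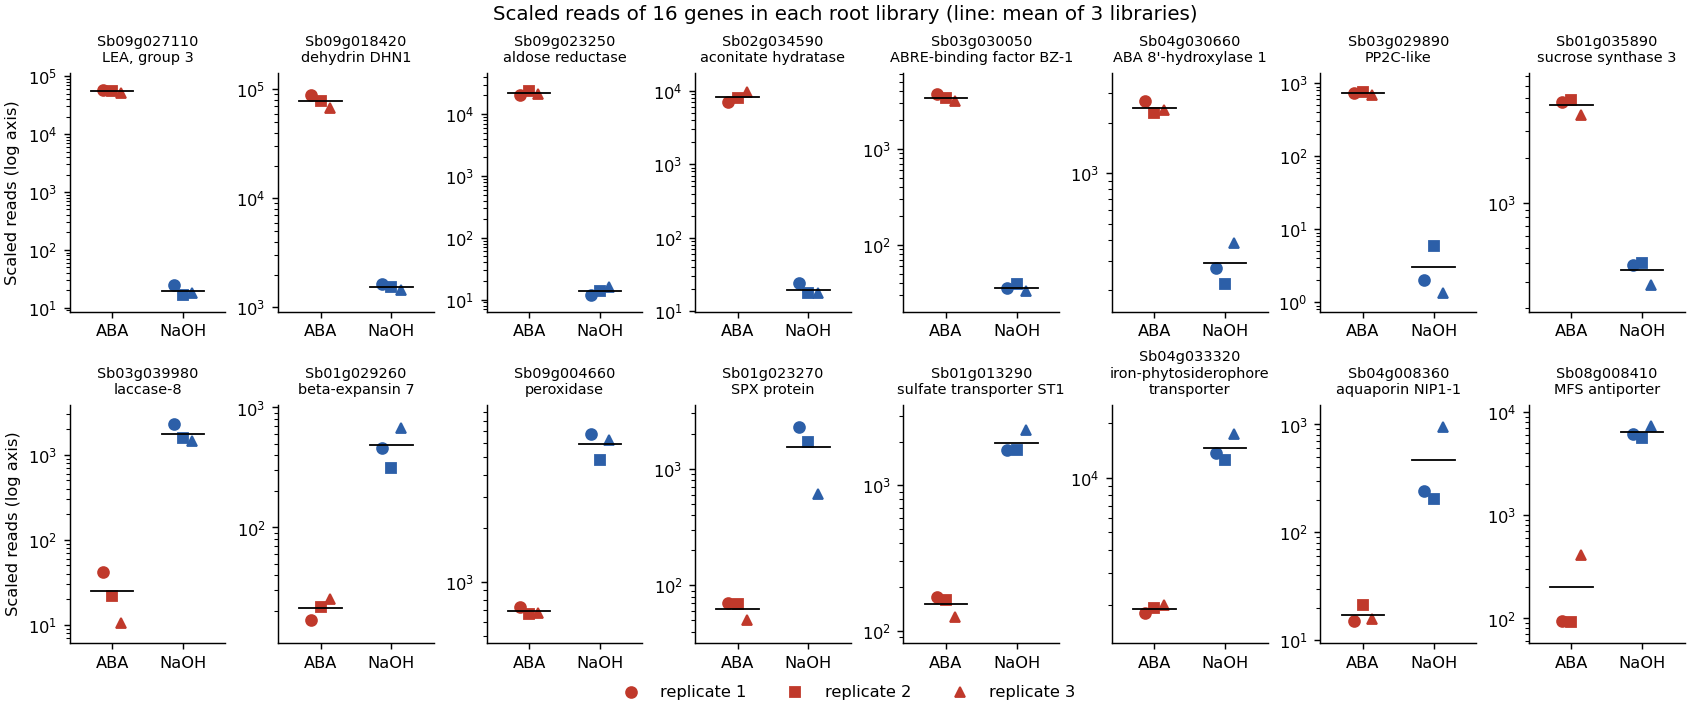
Scaled reads (vertical log axes, each with its own range) of 16 genes in the 3 ABA and the 3 NaOH root libraries. Red points are ABA roots, blue points NaOH roots, the symbols stand for replicate numbers and the black lines for means, and in none of the 16 genes do the groups overlap.

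The machinery of ABA perception changed in parts. Receptor genes were not among the named genes, so the first step was not described here. Of 5 PP2C genes, 3 rose, 1 fell and 1 was not called (Sb01g007340, log2 fold change −0.34). Sb03g029890 had 741.3, 767.0 and 697.2 scaled reads in ABA roots and 2.01, 5.86 and 1.32 in NaOH roots, which is 7.94 on the log2 scale (SE 0.62, adjusted p = 7.02e-09). Sb03g026070 had 2059, 2351 and 1966 in ABA roots and 641.5, 580.3 and 587.0 in NaOH roots, and Sb02g034660 had 78.9, 68.5 and 45.7 in ABA roots and 1.004, 3.91 and 0.66 in NaOH roots. The falling PP2C gene, Sb01g039615, had 39.96, 39.0 and 37.8 scaled reads in ABA roots and 130.5, 97.7 and 173.7 in NaOH roots. The files do not say which of these phosphatases belong to the group that ABA receptors bind.

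Of the 2 SnRK2 kinase genes, which carry the rice name SAPK, Sb01g033570 (SAPK1) rose by 1.84 on the log2 scale. It had 2482, 2720 and 2554 scaled reads in ABA roots and 685.7, 730.8 and 746.8 in NaOH roots. The other, Sb01g028760 (SAPK3), had a log2 fold change of 0.00 and was not called.

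Transcripts of ABA breakdown rose in each named gene. ABA 8′-hydroxylases are the cytochrome P450 enzymes that start the breakdown of the hormone, and all 3 were called higher. Sb02g026600 had 575.4, 465.3 and 578.5 scaled reads in ABA roots and 1.004, 1.95 and 1.98 in NaOH roots (log2 fold change 8.21, SE 0.45, adjusted p = 8.11e-11). Sb07g022990 had 450.6, 427.3 and 322.8 in ABA roots and 1.004, 0 and 4.62 in NaOH roots. Sb04g030660, the one expressed without ABA, had 2685, 2291 and 2372 in ABA roots and 270.1, 218.8 and 381.0 in NaOH roots, a log2 fold change of 3.07 (SE 0.36).

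Transcripts of ABA synthesis were less clear. The 9-cis-epoxycarotenoid dioxygenase gene Sb01g013520, whose enzyme cleaves carotenoids in the step that limits ABA synthesis, had 134.9, 93.3 and 63.9 scaled reads in ABA roots and 18.1, 12.7 and 23.8 in NaOH roots. On the log2 scale this was 2.37 (SE 0.77, adjusted p = 0.0231), and the call was lost without ABA root replicate 1 (adjusted p = 0.0759), without NaOH root replicate 1 (0.0636) or 2 (0.0741) and without replicate number 1 (0.183). A second gene of that kind, Sb04g030640, had a log2 fold change of −1.22 and was not called.

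Transcription factors split by family, with more rises than falls among bZIP, homeodomain and heat stress factors and more falls than rises among bHLH and WRKY factors. Of all named genes 29.7% rose and 27.8% fell. On chromosomes 1 and 2 and the first part of 3, where nearly every falling gene is described, 23.4% of named genes rose and 31.7% fell. There 4 of 7 bZIP, 5 of 10 homeodomain and 3 of 6 heat stress factors rose, and 1, 1 and 0 fell. Of 8 bHLH and 7 WRKY factors there, 3 of each fell and 1 of each rose. Among 22 bZIP factors, the family that holds the ABRE-binding factors, 13 rose and 6 fell. The ABRE-binding factor BZ-1 gene Sb03g030050 had 3725, 3404 and 3117 scaled reads in ABA roots and 35.1, 39.1 and 33.0 in NaOH roots, which is 6.58 on the log2 scale (SE 0.52, adjusted p = 8.31e-09). A second ABRE-binding factor, the Embp-2 gene Sb01g004080, rose by 5.60 on the log2 scale.

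Of 20 homeodomain factors, 14 rose and 2 fell. Their median log2 fold change was 1.43, where all tested genes had −0.02 and those with a named function 0.02. The homeodomain leucine zipper gene Sb02g027300 had 2096, 1964 and 2137 scaled reads in ABA roots and 904.6, 858.7 and 824.1 in NaOH roots, while Sb06g024000 rose by 8.37 on the log2 scale. Of 11 heat stress factors, 7 rose and 0 fell. The family that these factors are known to activate, the heat shock proteins that keep other proteins folded, had 8 rising and 0 falling genes among 15. The heat shock cognate 70 kDa gene Sb01g039390 had 1615, 1495 and 1645 scaled reads in ABA roots and 2.01, 7.82 and 7.26 in NaOH roots. Heat shock protein 17.2, encoded by Sb03g006870, had 1039, 1046 and 1808 in ABA roots and 17.1, 8.79 and 12.6 in NaOH roots, and the HSP101 gene Sb09g025900 rose by 4.96 (SE 0.39) on the log2 scale. The 17.4 kDa class I genes Sb01g039990, Sb01g040000 and Sb01g040030, with log2 fold changes of −0.47, −0.12 and 0.75, were not called.

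Among NAC factors 4 of 10 rose and 1 fell. In the list of AP2/ERF factors, which include the drought factors DREB and CBF, 8 of 29 genes rose and 3 fell, close to the 29.7% of named genes that rose. The rising count includes Sb01g006050, whose family is given as mTERF and which is not an AP2/ERF factor. The TaDREB2-like gene Sb03g002630 rose by 2.55, and the CBF genes Sb02g030330 and Sb04g032960, with log2 fold changes of −2.02 and −0.92, were not called. MYB factors moved in both directions, 13 up and 11 down of 37, near the 29.7% and 27.8% of named genes. Of 19 bHLH factors 3 rose and 8 fell, with a median of −1.06. The bHLH gene Sb01g045710 fell furthest in that family, by 5.88 on the log2 scale. Of 10 WRKY factors 2 rose and 5 fell. In WRKY factors the largest changes were a rise of Sb03g039550 (WRKY 56), with 39.96, 50.4 and 38.5 scaled reads in ABA roots and 3.01, 0.98 and 2.64 in NaOH roots, and a fall of the WRKY 70 gene Sb09g023270 by 2.29.

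**Figure D3:**
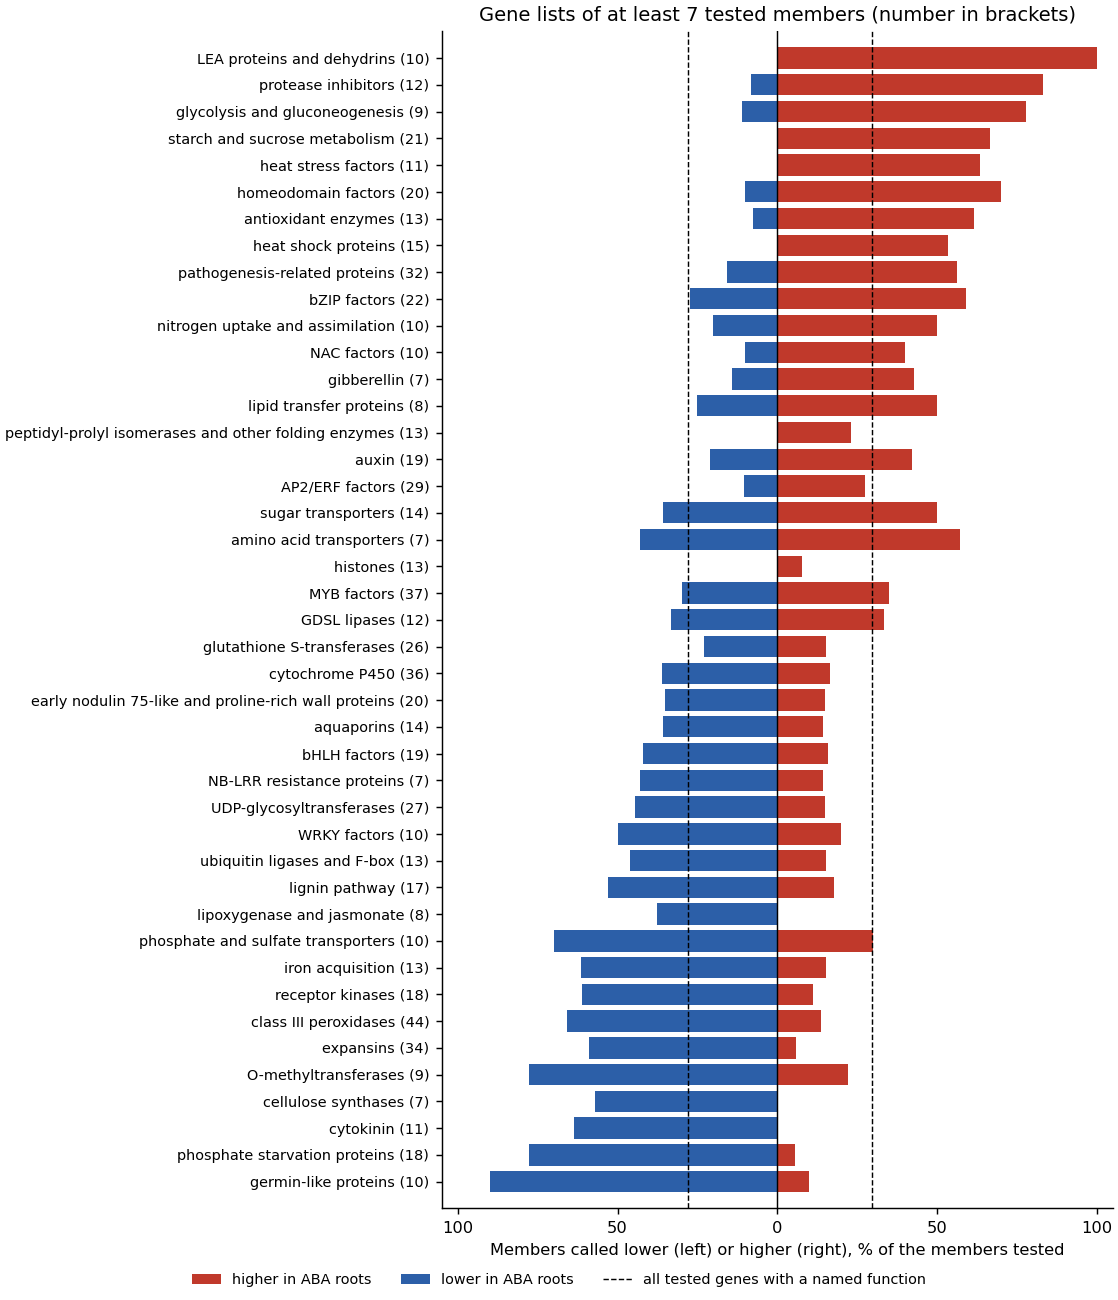
Percent of the tested members of each gene list that were called higher (red, right) or lower (blue, left) in ABA roots, for lists of at least 7 tested members, whose number is given in brackets, with dashed lines at the shares among the 1812 tested genes with a named function (29.7% higher and 27.8% lower). Lists of protection, starch and heat stress lie at the top, and lists of cell wall and mineral uptake at the bottom.

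Transcripts of starch and sucrose metabolism mostly rose. Of 21 such genes, 14 rose and 0 fell, with a median log2 fold change of 1.41. Among all named genes 29.7% rose and 27.8% fell, and many falling genes with small changes have no name and could not enter a list. On chromosomes 1 and 2 and the first part of 3, where nearly every falling gene is described, 5 of 10 rose and 0 fell. Of all named genes there 23.4% rose and 31.7% fell. The rising genes covered synthesis and breakdown. Sucrose synthase 3, which splits sucrose for use in the cell, was encoded by Sb01g035890, with 4715, 4860 and 3860 scaled reads in ABA roots and 385.5, 397.6 and 282.6 in NaOH roots. The sucrose phosphate synthase genes Sb09g028570, Sb05g007310 and Sb03g043900 rose by 1.22, 1.78 and 3.10 on the log2 scale and the starch branching enzyme genes Sb10g030776, Sb10g030773 and Sb06g015360 by 1.41, 1.57 and 1.86. The beta-amylase gene Sb01g019850 had 3 reads in the NaOH libraries together, a ratio of 191.2 with a 95% counting interval from 65.11 to 930.0. The cell wall invertase genes Sb06g031930 and Sb04g021810, with log2 fold changes of −0.99 and 0.26, were not called.

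Genes of galactosyl sugars and compatible solutes moved in both directions. The alkaline α-galactosidase gene Sb02g006320, whose enzyme acts on raffinose and its relatives, had 77427, 66278 and 66355 scaled reads in ABA roots and 1607, 1190 and 2205 in NaOH roots, and at 1558 RPKM it was among the 20 most abundant transcripts of ABA roots. In the list of raffinose and trehalose metabolism 2 of 6 genes rose and 2 fell, with a median log2 fold change of −0.33. The raffinose synthase or seed imbibition gene Sb01g004130 rose by 3.76 (SE 0.39) on the log2 scale, and the galactinol synthase 3 gene Sb01g037090 by 1.79. The trehalose-6-phosphate synthase gene Sb03g034640 fell by 1.17 and the trehalose-phosphatase gene Sb04g027650 by 1.03. Proline, a solute of stressed plants, is made by P5CS and broken down by proline dehydrogenase. The P5CS gene Sb03g039820 had 7623, 7996 and 8439 scaled reads in ABA roots and 1077, 1288 and 965.4 in NaOH roots, and the proline dehydrogenase gene Sb01g029660 had 160.8, 136.1 and 84.1 in ABA roots and 1029, 816.7 and 1118 in NaOH roots. The log2 fold changes of these genes were 2.85 and −2.97. The third gene of the proline list, the ornithine aminotransferase gene Sb01g013600, had a log2 fold change of 0.75 and was not called.

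A further list, glycolysis and gluconeogenesis, was set up after the values had been seen, and 7 of its 9 genes rose and 1 fell. The phosphoglycerate mutase gene Sb01g036420 rose by 6.52 and the cytosolic fructose-1,6-bisphosphatase gene Sb03g040900 by 5.73. All 4 genes of choline synthesis, another list of this kind, rose by 1.11 to 3.56; choline is the base of membrane lipids and of the solute glycine betaine. Of 12 protease inhibitors, chosen in the same way, 10 rose and 1 fell, and the serpin-like gene Sb03g035570 rose most, by 5.13.

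Enzymes that remove reactive oxygen rose in 8 of 13 genes and fell in 1. The catalase 2 gene Sb01g048280 had 726.3, 573.8 and 573.3 scaled reads in ABA roots and 58.2, 48.9 and 68.7 in NaOH roots (log2 fold change 3.40, SE 0.19). The glutathione peroxidase gene Sb04g032520 had 1425, 1209 and 1208 in ABA roots and 490.9, 443.5 and 397.5 in NaOH roots. The falling member, the ascorbate peroxidase gene Sb02g044060, was one of the most abundant transcripts of NaOH roots, at 1766 RPKM, and had 777.8 RPKM in ABA roots. Its scaled reads were 13981, 14530 and 13830 in ABA roots and 33656, 31315 and 35251 in NaOH roots, groups that did not overlap.

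Genes that are known as pathogenesis-related rose in 18 of 32 cases and fell in 5, beside 29.7% rising and 27.8% falling among all named genes. On chromosomes 1 and 2 and the first part of 3, where nearly every falling gene is described, 2 of 10 rose and 2 fell. Of all named genes there 23.4% rose and 31.7% fell, so that the excess of rises was not seen on that stretch. Chitinases cut the wall polymer of fungi, and the chitinase B1 gene Sb06g021230 had 1534, 1184 and 934.6 scaled reads in ABA roots and 37.2, 26.4 and 27.1 in NaOH roots. It is the first of 4 neighbouring chitinase genes, Sb06g021230 to Sb06g021260 (chromosome 6, 50556905 to 50575404), which all rose, by 1.81 to 5.34 on the log2 scale. Against that, the chitinase gene Sb01g021920 fell by 2.92 (SE 0.31), and the PR-1 gene Sb04g035320 by 2.26. Receptor kinases, which sit at the cell surface and bind signals of microbes and of the plant itself, mostly fell, 11 of 18, and 2 rose. In a stretch of chromosome 2 (55805153 to 55966235), 7 neighbouring tested models from Sb02g022650 to Sb02g022740, 3 of them receptor kinases, fell by 2.84 or more. Of these, Sb02g022700 had 0 reads in the 3 ABA libraries and 135.5, 89.9 and 157.2 scaled reads in NaOH roots, at least 49.0-fold lower with ABA.

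Genes of surface lipids changed toward higher transcripts in few but clear cases. The CER1 gene Sb01g019590, which acts in the making of wax alkanes, had 878.1, 835.5 and 577.2 scaled reads in ABA roots and 11.04, 17.6 and 17.2 in NaOH roots. The fatty acyl-CoA reductase gene Sb02g011920, an enzyme of wax and suberin alcohols, rose by 1.56 (SE 0.18). Of 8 lipid transfer proteins 4 rose and 2 fell. Sb03g039880 among them had 6241, 5883 and 5874 scaled reads in ABA roots and 230.9, 223.7 and 244.3 in NaOH roots.

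Several lists of cell wall genes had more falling than rising members. Class III peroxidases, secreted enzymes that cross-link wall polymers and produce or use hydrogen peroxide, fell in 29 of 44 genes and rose in 6, with a median log2 fold change of −2.06. On chromosomes 1 and 2 and the first part of 3, where the tables of the study describe nearly every falling gene, the count was 14 falling and 4 rising of 24, beside 31.7% falling and 23.4% rising, 55.1% in all, over the 949 named genes there. Of all 8775 genes tested on that stretch 13.5% were called, 5.56% higher and 7.97% lower. The peroxidase gene Sb09g004660 had 728.3, 666.1 and 675.0 scaled reads in ABA roots and 6751, 4802 and 6205 in NaOH roots. Class III peroxidase 66, encoded by Sb04g020720, also fell, with 1, 0 and 1 reads in the ABA libraries against 50, 43 and 82 reads in the NaOH libraries, a ratio of 88.76 (95% counting interval 24.21 to 738.7). Of the risers, Sb10g021610 had 832.2, 725.1 and 416.1 scaled reads in ABA roots and 14.1, 11.7 and 16.5 in NaOH roots.

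Expansins loosen the wall of growing cells, and 20 of 34 fell and 2 rose, with a median of −2.16. Beta-expansin 7, encoded by Sb01g029260 (chromosome 1, 51113755 to 51115388), had 17.0, 21.9 and 25.4 scaled reads in ABA roots and 463.8, 311.6 and 676.8 in NaOH roots. A run of 7 neighbouring expansin genes, Sb01g021030 to Sb01g021090 (chromosome 1, 24463325 to 24546246), all fell, by 1.75 to 4.15. Sb01g021070 among them had 45.0, 40.9 and 32.6 scaled reads in ABA roots and 456.8, 396.6 and 738.9 in NaOH roots. Most of these are named expansin-A31, and since only reads with a single match were kept, copies that are alike lose reads and their separate values are less certain. The expansin genes that were not called, 12 in number, had log2 fold changes of −0.77 to 0.47. The genes that rose were Sb10g030575, an expansin-like A4 gene, by 1.47 (SE 0.33) and Sb01g029320, beta-expansin B2, by 1.23.

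Lignin stiffens walls and is made from phenylpropanoids by enzymes that include 4-coumarate CoA ligase and, at the end, laccases. In this list 9 of 17 genes fell and 3 rose. The laccase 8 gene Sb03g039980 (chromosome 3, 67615230 to 67617757) showed the largest fall among genes with a named function and more than 3 reads in each ABA library. It had 42.0, 21.9 and 10.4 scaled reads in ABA roots and 2278, 1559 and 1447 in NaOH roots, which is −6.21 on the log2 scale (SE 0.34, adjusted p = 7.87e-11). The 4-coumarate CoA ligase gene Sb07g007810 had 144.9, 120.9 and 92.6 in ABA roots and 1354, 1065 and 1618 in NaOH roots. The phenylalanine ammonia-lyase gene Sb06g022750, which starts the pathway, had a log2 fold change of 0.02 and was not called.

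Of 7 cellulose synthase-like genes, which make other wall polysaccharides, 4 fell and 0 rose. Sb02g036010 (CslF3) had 5.00, 1.90 and 1.96 scaled reads in ABA roots and 431.7, 421.1 and 375.7 in NaOH roots, and the other CslF3 genes, Sb02g036000 and Sb02g035990, fell by 2.82 and 1.77. Among 5 proteins of the Casparian strip family and dirigent proteins 2 fell and 1 rose. Sb05g025800, an integral membrane protein, had 175.8, 145.6 and 129.1 scaled reads in ABA roots and 2074, 1607 and 3065 in NaOH roots. A list of germin-like proteins, small wall proteins, was added after the values had been seen: 9 of its 10 genes fell, of which 6 on chromosome 7 belong to subfamily 1 and had log2 fold changes of −5.18 to −3.38. Where such copies are alike, reads are lost and the separate values are less certain.

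Other wall lists were mixed. Of 5 xyloglucan enzymes, which build and remodel a wall polysaccharide, 1 rose and 2 fell, with a median log2 fold change of 0.77. The KATAMARI1-like xyloglucan galactosyltransferase gene Sb01g047270 had 462.5, 510.1 and 416.1 scaled reads in ABA roots and 125.5, 134.8 and 124.1 in NaOH roots, while Sb01g020070, another gene of that name, fell by 1.24. Of 20 early nodulin 75-like and proline-rich wall proteins, a list added after the values had been seen, 3 rose and 7 fell, with a median of −0.52. The proline-rich protein gene Sb07g023790 rose most of them, with 30151, 24783 and 18009 scaled reads in ABA roots and 2.01, 4.89 and 0.66 in NaOH roots, a log2 fold change of 13.30 (SE 0.96).

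Transcripts of mineral uptake fell in several parts. Grasses take up iron with phytosiderophores made from nicotianamine, and 8 of 13 genes of iron acquisition fell and 2 rose, with a median log2 fold change of −2.63. The iron-phytosiderophore transporter gene Sb04g033320 (yellow stripe 1) had 1786, 1908 and 1978 scaled reads in ABA roots and 13760, 12590 and 17400 in NaOH roots (log2 fold change −2.95, SE 0.17, adjusted p = 1.55e-10). The nicotianamine synthase gene Sb01g037480 (ZmNAS2), at 1345 RPKM one of the most abundant transcripts of NaOH roots, had 81.3 RPKM in ABA roots. Its scaled reads were 2260, 1549 and 3260 in ABA roots and 37995, 23215 and 61865 in NaOH roots. The deoxymugineic acid synthase gene Sb01g041640 fell by 2.63. The iron transporter gene Sb01g012440 had 1.998, 1.903 and 13.7 scaled reads in ABA roots and 110.4, 64.5 and 1869 in NaOH roots, a log2 fold change of −6.67 (SE 1.20) with NaOH root replicate 3 far above the other NaOH libraries. The risers were the nicotianamine synthase 3 gene Sb01g013150 by 2.14 and Sb08g016390, an iron-deficiency clone, by 4.07 (SE 0.53).

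Of 10 phosphate and sulfate transporters, 7 fell and 3 rose, and no member was left uncalled. The sulfate transporter gene Sb01g013290 (ST1) had 170.8, 163.7 and 123.9 scaled reads in ABA roots and 1761, 1740 and 2388 in NaOH roots, while the sulfate transporter 3.1 gene Sb01g046410 had 3589, 3216 and 2829 in ABA roots and 589.3, 427.9 and 1100 in NaOH roots. The high affinity phosphate transporter 2 gene Sb01g046890 fell by 1.76. Proteins known to be induced by phosphate starvation, such as acid phosphatases and SPX proteins, are a list added after the values had been seen, and 14 of its 18 genes fell and 1 rose. Several of its members are also in the list of transporters. The SPX gene Sb01g023270, of a family that senses phosphate, had 70.9, 68.5 and 50.2 scaled reads in ABA roots and 2253, 1693 and 606.8 in NaOH roots. The antiporter gene Sb08g008410 of the major facilitator superfamily had 93.9, 93.3 and 412.2 scaled reads in ABA roots and 6146, 5664 and 7353 in NaOH roots, so that the third ABA library stood above the others and still far below the NaOH libraries.

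Nitrogen genes and water channels were mixed. Of 10 genes of nitrogen uptake and assimilation 5 rose and 2 fell. The glutamine synthetase gene Sb01g010270 had 2736, 2847 and 1928 scaled reads in ABA roots and 381.5, 321.4 and 230.5 in NaOH roots. Of the asparagine synthetase genes, which make the amino acid that stores nitrogen, Sb05g000440 had 505.5, 466.3 and 378.9 scaled reads in ABA roots and 8.03, 3.91 and 7.92 in NaOH roots, and Sb01g038460 had 12477, 10784 and 8834 in ABA roots and 58592, 39975 and 43043 in NaOH roots. Both differences were called, in opposite directions. The nitrate reductase gene Sb04g024300 had 5.99, 5.71 and 1.304 scaled reads in ABA roots and 179.7, 113.3 and 5.94 in NaOH roots, where the third library lay close to those of ABA roots.

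Aquaporins fell in 5 of 14 genes and rose in 2. Sb04g032900 (TIP2-1), a vacuolar water channel, had 2908, 2694 and 3750 scaled reads in ABA roots and 12110, 9486 and 24680 in NaOH roots. Sb04g008360 (NIP1-1) had 14.99, 20.9 and 15.7 in ABA roots and 243.0, 202.2 and 956.2 in NaOH roots. The plasma membrane genes Sb04g037800 (PIP1-5), Sb02g010790 and Sb02g010830 (both PIP2-6), with log2 fold changes of −0.78, −1.15 and −0.71, were not called. Sugar transporters rose in 7 of 14 genes and fell in 5.

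Genes of other hormones were touched unevenly. In the cytokinin list, which pools genes of response to the hormone and of its conjugation, 7 of 11 genes fell and 0 rose, with a median of −1.85. This count gives no direction for the action of the hormone. Its falling members Sb06g012280, Sb06g024946 and Sb06g024950 are also counted among the UDP-glycosyltransferases. Only 1 of the 11 genes lies on chromosomes 1 and 2 and the first part of 3, where nearly every falling gene is described. Response regulator 7, encoded by Sb04g022780 and of a family that cytokinin induces, had 122.9, 126.6 and 109.6 scaled reads in ABA roots and 443.7, 324.3 and 526.9 in NaOH roots. The cis-zeatin glucosyltransferase-like gene Sb06g012280 had 14.99, 8.57 and 7.83 in ABA roots and 169.7, 129.0 and 246.3 in NaOH roots. Of 4 ethylene genes 3 fell, among them the ACC oxidase gene Sb02g026280, an enzyme that makes ethylene, by 3.29 (SE 0.33). In the list of lipoxygenase and jasmonate 3 of 8 fell and 0 rose, and the lipoxygenase gene Sb01g011040 had 2535, 2564 and 3092 scaled reads in ABA roots and 8766, 7510 and 12910 in NaOH roots.

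Auxin genes rose in 8 of 19 cases and fell in 4, and 2 fell without NaOH root replicate 3. On chromosomes 1 and 2 and the first part of 3, where nearly every falling gene is described, 3 of 10 rose and 3 fell. Of all named genes there 23.4% rose and 31.7% fell. The auxin-responsive IAA14 gene Sb01g005110 rose by 3.37, and the GH3.8 gene Sb01g032020, whose enzyme binds auxin to amino acids, had 67.9, 44.7 and 56.7 scaled reads in ABA roots and 502.0, 391.8 and 533.6 in NaOH roots. In the gibberellin list 3 of 7 rose and 1 fell. The gibberellin 20-oxidase gene Sb01g000580, an enzyme of synthesis, rose by 1.80 (SE 0.26) and the gibberellin 2-oxidase gene Sb03g002150, an enzyme of breakdown, by 2.29. The GA 3β-hydroxylase gene Sb03g004020 had 253.7, 263.6 and 245.9 scaled reads in ABA roots and 805.2, 542.2 and 588.4 in NaOH roots (adjusted p = 0.0164), and its call was lost without ABA root replicate 3 (edgeR adjusted p = 0.0547) or NaOH root replicate 1 (0.0721), without replicate number 1 (0.116) or 3 (0.145) and on base counts (0.157), with log2 fold changes of −1.38 to −1.15 beside −1.34.

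Detoxifying families had members that rose and members that fell, beside 29.7% rising and 27.8% falling among all named genes. Of 36 cytochrome P450 genes 6 rose and 13 fell, a falling count that was 8 without ABA root replicate 3. Of 27 UDP-glycosyltransferases, which attach sugars to small molecules, 4 rose and 12 fell. Of 26 glutathione S-transferases 4 rose and 6 fell, and the rising count was 2 without ABA root replicate 1. The P450 gene Sb02g040520 had 2633, 2267 and 1973 scaled reads in ABA roots and 56.2, 54.7 and 85.2 in NaOH roots. In the lists of cell division 1 of 13 histone genes was called, Sb01g028960 (H2AXb), which rose by 1.84 (SE 0.38), and the others lay at log2 fold changes of −0.75 to −0.10. Of 2 genes of cell cycle and DNA replication, the cyclin-D3-2 gene Sb02g014250 rose by 1.56 (SE 0.31) and Sb01g017240, at −0.14, was not called.

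The 3 replicate numbers gave the same direction in 3088 of the 3094 called genes, 99.8%, against 55.97% of the genes that were not called. Since the calls rest on the same 6 libraries, this describes their spread and is no separate test. The 6 exceptions included the subtilisin-like proteinase gene Sb09g021490, with 342.7, 312.1 and 190.4 scaled reads in ABA roots and 49.2, 44.0 and 249.6 in NaOH roots, and the auxin-induced gene Sb07g022210, with 31.0, 28.6 and 26.7 in ABA roots and 54.2, 28.3 and 130.1 in NaOH roots. In the proteinase gene only NaOH replicate 3 lay above the ABA library of its number, and the other NaOH libraries lay far below all ABA libraries. In the auxin-induced gene NaOH replicate 2 lay at the level of ABA roots and the other NaOH libraries above it. The ABA and NaOH libraries did not overlap in 1224 of the 1232 rising and 1825 of the 1862 falling genes. Over all tested genes 22.1% had every ABA library above every NaOH library and 25.7% had every one below.

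The size of the change varied between the experiments more than its direction. Among rising genes the median log2 ratio of ABA to NaOH roots was 1.87, 2.02 and 1.6 in replicate numbers 1, 2 and 3. Among falling genes it was −1.53, −1.42 and −1.90, so that number 3 had the smallest rises and the largest falls. The median SD of the 3 ratios was 0.37 for rising and 0.40 for falling genes, beside 0.26 for all tested genes. Across the 3094 called genes, which are not independent replicates, Pearson's r of the log2 ratios was 0.987 between numbers 1 and 2, 0.955 between 1 and 3 and 0.951 between 2 and 3. These genes were chosen by their change in the same libraries, which favours high values. Over all 22667 tested genes r was 0.926, 0.833 and 0.809 for the same pairs. Spearman's rho over all tested genes was 0.989 to 0.995 within ABA roots and 0.971 to 0.993 within NaOH roots, lowest with NaOH root replicate 3, and 0.905 to 0.926 between the groups.

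**Figure D4:**
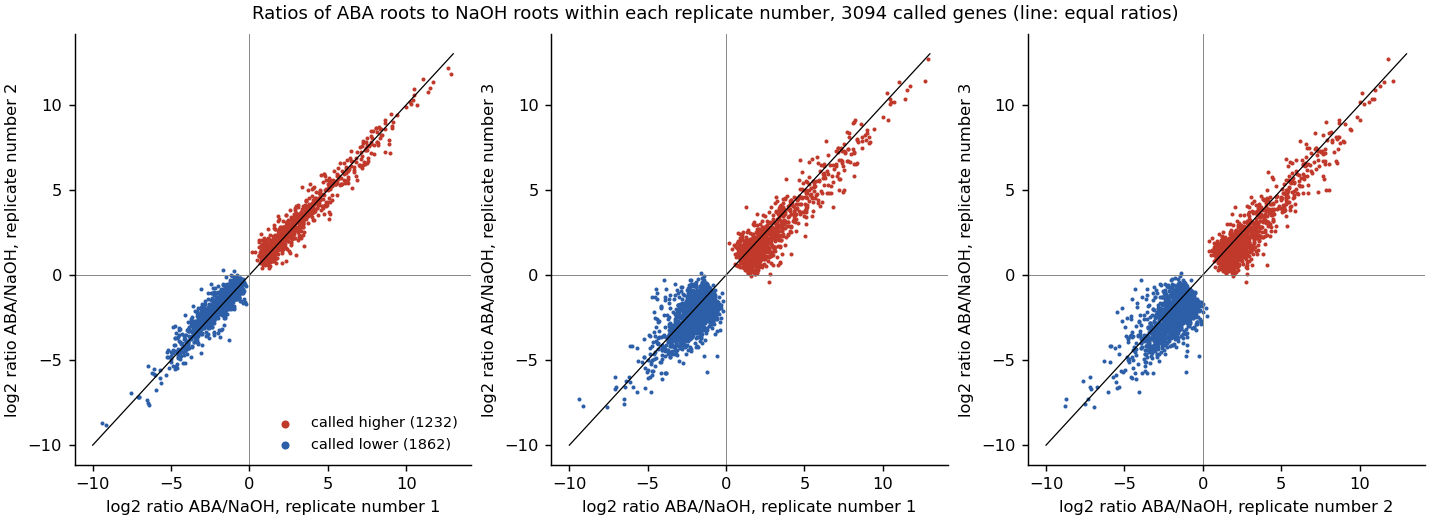
Log2 ratios of ABA to NaOH roots within replicate numbers 1, 2 and 3, plotted against each other for the 1232 genes called higher (red) and the 1862 called lower (blue), with a black line at equal ratios. Points lie close to the line for numbers 1 and 2 (r = 0.987), and with number 3 the rising genes lie more often below the line and the falling genes too. The genes were chosen by their change in these libraries, and over all tested genes r for numbers 1 and 2 was 0.926.

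ABA also changed genes in shoots, 7.17% of those tested: 717 rose (3.16%) and 908 fell (4.01%). Of the genes that rose in ABA roots, 301 also rose in ABA shoots, 24.4% of the root list and 42.0% of the shoot list, and 20 fell there. Of the genes that fell in ABA roots 230 also fell in ABA shoots, 12.4% of the root list and 25.3% of the shoot list, and 27 rose there. The effect differed between the tissues in 2167 genes (9.56%), with a positive difference of roots minus shoots in 4.98% and a negative one in 4.58%. Among the genes that rose in roots, 521 (42.3%) rose more there than in shoots, and among those that fell in roots, 524 (28.1%) fell more there. Since these genes were chosen for their change in ABA roots, which favours a larger change there, such shares are descriptions and no test. The number of genes that differed depended on the replicates: 1031 genes differed without replicate 1 and 1176 without replicate 3.

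Genes named above differed in this respect. The aldose reductase gene Sb09g023250 had a log2 fold change of 10.58 in ABA roots and of −0.52 in ABA shoots (difference 11.11, adjusted p = 1.56e-06). The ABRE-binding factor gene Sb03g030050 had 6.58 in ABA roots and 6.41 in ABA shoots, a difference of 0.17 (adjusted p = 0.951). The dehydrin gene Sb09g018420 rose less in ABA roots than in ABA shoots (5.66 and 7.80, difference −2.13, adjusted p = 0.0397). The sulfate transporter gene Sb01g046410 and the gibberellin 20-oxidase gene Sb01g000580 had log2 fold changes of 2.18 and 1.80 in ABA roots and of −0.40 and −2.36 in ABA shoots. No read was found in the 6 shoot libraries of ABA and NaOH for 16 of the rising and 94 of the falling genes, which have no measured change there.

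In roots PEG changed 790 genes against H2O (3.49%), of which 461 rose (2.03%) and 329 fell (1.45%). Of the genes that rose in ABA roots 166 also rose in PEG roots, 13.5% of the ABA list and 36.0% of the PEG list, and 4 fell there. Of the genes that fell in ABA roots 227 also fell in PEG roots, 12.2% of the ABA list and 69.0% of the PEG list, and 44 rose there. The median log2 fold change in PEG roots was 0.49 for the genes that rose with ABA and −0.27 for those that fell. The effects of ABA and PEG differed in 2750 genes (12.1%), ABA minus PEG being positive in 3.98% and negative in 8.15%, and the genes that differed numbered 1368 without replicate 1 and 1538 without replicate 3. Among the genes that rose with ABA, 625 (50.7%) rose more with ABA than with PEG, and among those that fell with ABA, 1126 (60.5%) fell more with it, shares that the choice of genes by their change with ABA favours.

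The ABA 8′-hydroxylase gene Sb02g026600 had a log2 fold change of 8.21 in ABA roots and of 0.04 in PEG roots (difference 8.17, adjusted p = 1.07e-04), whereas Sb04g030660 had 3.07 in ABA roots and 2.10 in PEG roots (difference 0.97, adjusted p = 0.190). The SPX gene Sb01g023270 had −4.59 in ABA roots and −3.89 in PEG roots, a difference of −0.70 (adjusted p = 0.368). Glyoxal oxidase, which produces hydrogen peroxide in the wall, was encoded by Sb06g021520, with −5.02 in ABA roots and 1.53 in PEG roots (difference −6.55, adjusted p = 2.10e-07). Each treatment had its own control, so that no library was shared between these comparisons.

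**Figure D5:**
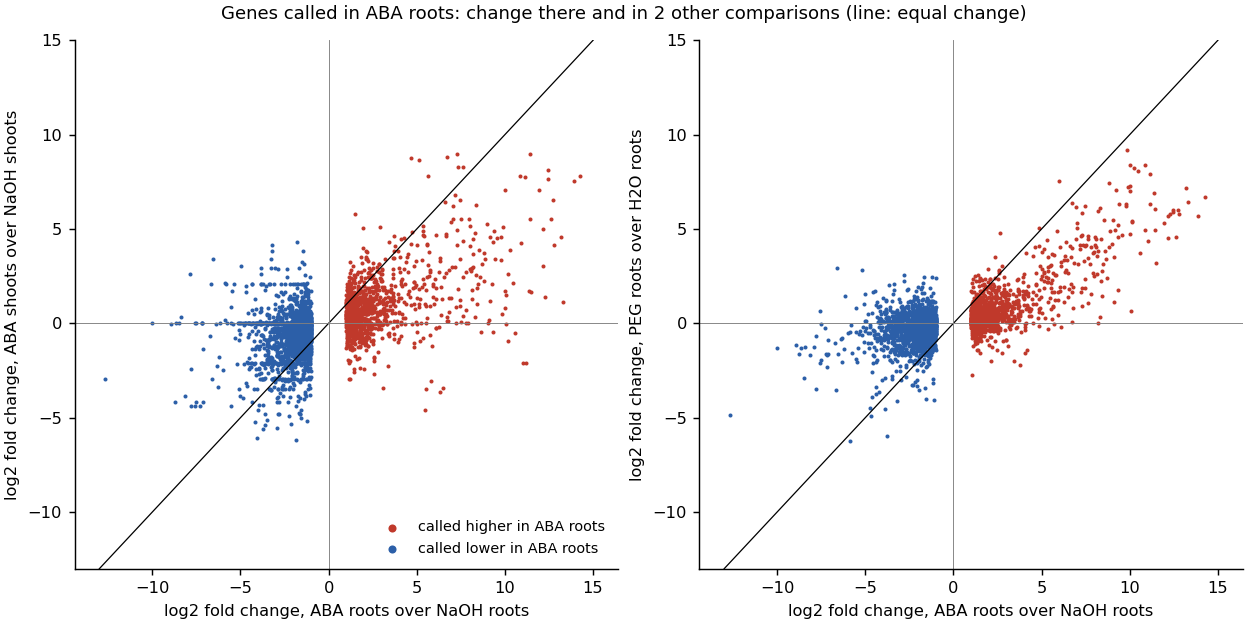
Log2 fold change in ABA shoots over NaOH shoots (left) and in PEG roots over H2O roots (right) against that in ABA roots over NaOH roots, for the 1232 genes called higher (red) and the 1862 called lower (blue) in ABA roots, with a black line at equal change. The genes were chosen by the horizontal axis, which favours smaller values on the vertical axis, where the genes called higher had medians of 0.60 in ABA shoots and 0.49 in PEG roots.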

How the data were processed

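RNA was extracted from pooled plants and sequenced by the authors, who trimmed reads to 50 bases, mapped them with ELAND_rna, allowing up to 2 errors, on sorghum genome build sbi1, left out chloroplast, mitochondrial and repeat sequences and reads with several matches, and counted on Sbi1.4 gene models and microRNA models with CASAVA 1.6. Strand was not kept. The deposited raw count is a count of aligned bases per gene model, from which whole reads were made here by dividing by 50 and rounding: 90.6% to 94.45% of the values above 0 in the 6 libraries were multiples of 50. The deposited RPKM was used only to compare levels between genes. The deposited depth, a coverage signal of aligned bases over exon length, was used only for the depth limit of 2X. The deposited files hold no fold changes or p-values.

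Reads per library of the series were 12891739 to 22840516. Tests used R 4.3.3 and edgeR 4.0.16: TMM scaling, the low-count filter over 8 groups, and a robust quasi-likelihood fit of 24 libraries with a mean per group. P-values are two-sided with Benjamini-Hochberg adjustment over 22667 genes, and SE is the absolute log2 fold change over the square root of F. Scaled reads refer to the mean effective library of 17608742 reads, and ratios within a replicate number add 2 scaled reads. Counting intervals are exact, at 95%, and with the limit of 3 reads for a count of 0 they cover counting error only. Interactions have no depth limit. The fit was tested on simulated data.

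The replicate numbers pair the libraries, as each was a separate experiment in the methods of the study. The correlation of deviations from the group means was 0.201, 0.228 and 0.118 for ABA and NaOH roots of numbers 1, 2 and 3. For unlike numbers it was −0.302 to 0.153, a range that holds the value of number 3. That check does not set the pairs apart, so that the pairing rests on the methods alone. The alternatives were no depth limit or 5X, no fold change limit, the replicate block, fits of 6 or 12 libraries, DESeq2 1.42.0, its size factors, an exact test with common dispersion, library sizes alone, other filters, base counts in place of reads, and the omission of a replicate number or a library.

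Gene names come from the supplementary tables of the study as they were used here, which described 4001 gene models. The study reports more changed genes than that. In the tables as used here falling genes with small changes are missing: 1231 of 1232 rising and 1130 of 1862 falling genes are described. Only names and families were used. The members and lists were chosen with earlier results of these data known, 12 of the 64 lists after seeing the values. Genes were named as the 10 largest rises and falls with a named function, the same direction in all 3 replicate numbers and more than 3 reads in each library of the lower group, the 4 genes with most reads in each direction among those with 0 reads in the other group, the 2 members of each list with the smallest adjusted p that were called and 1 called in the opposite direction, and all called genes of ABA signalling and metabolism. Others, including the most abundant genes and members of the added lists, were named after their values had been seen.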

Additional observations from a re-analysis of the deposited data

Results flagged for a closer look

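The ABA effect differed between roots and shoots, by the test of that difference (adjusted p under 0.05), in 14 of the 29 genes named for the size of their change or for ABA signalling and metabolism, against 9.56% of all genes tested. Most were chosen for a large change in roots, which favours such a difference. The values are the log2 fold change of ABA over NaOH in roots minus that in shoots. Positive differences were found for the aldose reductase gene Sb09g023250 (11.11), the actin-depolymerizing factor gene Sb01g003260 (6.59), the ABA 8′-hydroxylase genes Sb07g022990 (6.51), Sb02g026600 (5.26) and Sb04g030660 (1.83), the EF-hand gene Sb01g004490 (6.22), the LEA gene Sb09g027110 (5.90), the aconitate hydratase gene Sb02g034590 (5.57), the Tim translocase gene Sb01g037560 (4.07) and the heat shock protein 17.2 gene Sb03g006870 (3.97). Negative differences were found for the antiporter gene Sb08g008410 (−7.99), the SPX gene Sb01g023270 (−5.15), the aquaporin gene Sb04g008360 (−4.70) and the beta-expansin 7 gene Sb01g029260 (−2.18).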

How the results depend on the processing

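The number of called genes (3094 as reported) was 2342 to 4058 under the alternatives that kept the fold change limit, and 6203 without that limit (2717 higher, 3486 lower). Leaving out a replicate number or a single library gave 2665 to 3163 genes, with the share of rising genes between 35.7% and 47.8%, against 39.8% with all libraries. In the fit with the replicate block 3121 genes were called, 1265 higher and 1856 lower, and 3056 of the 3094 kept their call; the block moved no count of calls or list of at least 3 called members by more than 1.5 times and changed no named gene's call. No called gene was called in the other direction under any alternative. The interaction counts depended on whole replicate numbers: leave-outs gave 1031 to 2233 genes for roots against shoots (1031 without replicate 1, 1176 without replicate 3) and 1368 to 2957 for ABA against PEG (1368 and 1538). Of 132 named genes 121 kept their call under every alternative, 11 lost it under at least 1 and 0 reversed; on base counts as deposited 8 lost it. Of 2772 recomputed counts of list members 141 moved by more than 1.5 times. On base counts 2 of the 7 falling O-methyltransferases were called, and without replicate 3 the falling MYB factors were 7 of 11 and the falling F-box genes 2 of 6; the cause was not tested. With library sizes alone the median change over all tested genes moved by 0.054. The share of promoters with an ABRE was not run. Depth limited the calls under 1 RPKM, where 0 genes reached them.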

Other observations

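Of 149 pri-microRNA models 23 were tested, and 0 were called higher and 2 lower, beside 8.21% of all tested genes that were called lower. MIR444.p1 had 91.9, 79.0 and 187.2 scaled reads in ABA roots and 318.2, 371.2 and 820.8 in NaOH roots, a log2 fold change of −2.07 (edgeR adjusted p = 2.28e-04). MIR160a, whose microRNA is known to target auxin response factors, had 3.996, 9.52 and 11.7 scaled reads in ABA roots and 28.1, 17.6 and 15.2 in NaOH roots (log2 fold change −1.20, edgeR adjusted p = 0.0450). These are counts on precursor models from a library of long transcripts, and mature microRNAs were not measured.

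Of 610 neighbouring pairs of tested models that were both called, 452 (74.1%) had the same direction, where 39.8% of all called genes rose and the others fell. In all, 9 stretches of at least 4 neighbouring models were called in 1 direction, 2 higher and 7 lower, the longest of 7 models. Among them are the expansin, receptor kinase and chitinase genes described above, and 5 models on chromosome 10 from Sb10g024220, a polyphenol oxidase-like gene, to Sb10g024280 (53190460 to 53232638), with log2 fold changes of −2.88 to −1.22. Copies in such stretches can share reads, and only reads with a single match were counted.

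Further genes were named after their values had been seen. The metallothionein-like gene Sb03g006090, of a family that binds metals, had 2901 RPKM in ABA roots and 160.3 in NaOH roots. A gene named as a 22 kDa drought-inducible protein, Sb08g004190, had 5862, 5822 and 4996 scaled reads in ABA roots and 25472, 20843 and 17774 in NaOH roots, a fall of log2 −1.94 (SE 0.40). Enzymes of cyanogenic glucosides, which release hydrogen cyanide in damaged sorghum, are a list added after the values had been seen, and 2 of 3 rose and 1 fell. The hydroxymandelonitrile lyase gene Sb04g036350 rose by 6.12 and the dhurrinase gene Sb08g007570 fell by 2.33 on the log2 scale.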
